A study of Mus musculus with 5 samples.

Results

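Binding of the transcription factors IRF4 and IRF8 was described at 10 genes of B cell receptor signalling, Syk, Blnk, Btk, Lyn, Blk, Plcg2, Bank1, Grap, Dapp1 and Cd79a, out of 22380 protein-coding genes of the mouse annotation. An interval of a peak list belonged to a gene when its centre lay in the gene body or within 50 kb of it (GENCODE M1 on mm9, where Syk is named Sykb). The rule gave 28 of the 5590 intervals in 5 lists from chromatin immunoprecipitation followed by sequencing (ChIP-seq). All cells came from wild-type C57BL/6 mice. Splenic naive B cells were cultured with 10 μg/ml lipopolysaccharide (LPS), a bacterial product that activates B cells, and IRF4 was mapped after 72 h and after 48 h (antibody M-17), as was IRF8 (antibody C-19). The fifth list was IRF8, with the same C-19 antibody, in germinal centre (GC) B cells sorted at day 13 after immunisation with NP-KLH. Each group held 1 library, so no difference has a replicate check, and how many mice or cultures a library pooled is not given in the sources used here. The IRF8 72 h header gives its tags a name with the label of a second replicate, but the sources used here do not say if it is a separate library or a merge of several. Peak lists hold no expression values, so the cell type labels could not be set against marker genes.

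Antigen binding to the B cell receptor makes Src-family kinases phosphorylate the receptor's CD79 chains, on which the kinase SYK docks. SYK phosphorylates adaptor proteins, which bring the kinase BTK and the phospholipase PLCG2 together and start calcium release. IRF4 and IRF8 are related factors that bind DNA weakly alone. Next to PU.1 or SPIB, which are ETS factors, they bind a composite element, the EICE, searched here as GGAANNGAAA. Next to AP-1 proteins such as BATF they bind another, the AICE, searched here in its joined and its spaced form. IRF8 also binds the interferon-stimulated response element (ISRE), whose core was searched as GAAANNGAAA, and single sites were searched for AP-1 (TGACTCA, which is TGAGTCA on the other strand) and for PU.1-type ETS factors (GAGGAAGT).

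Of the 10 genes, 6 had an interval in the IRF4 72 h list, 5 in the IRF4 48 h list, 4 in the IRF8 72 h list, 1 in the IRF8 48 h list and 7 in the GC list. Of all protein-coding genes, the same rule gave 7.61% for IRF4 72 h, 11.5% for IRF4 48 h, 8.81% for IRF8 72 h, 1.99% for IRF8 48 h and 15.6% for GC. In any of the 5 lists, 7 of the 10 genes had an interval, against 28.1% of all genes. Syk, Blnk, Lyn, Plcg2, Bank1, Grap and Dapp1 had one, while Btk, Blk and Cd79a had none in any list. The 10 genes are long, with a median of 58.1 kb against 15.4 kb for all protein-coding genes, and a long gene has a wider window. Per Mb of window, the 10 genes held 3.81 IRF4 72 h peaks against 0.596 over all genes, and 2.72 IRF4 48 h peaks against 0.971. For IRF8 they held 2.18 at 72 h against 0.687, 0.545 at 48 h against 0.153 and 5.99 GC intervals against 1.33. The genes were chosen with earlier results of these lists known, so these counts are a description with no test.

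**Figure D1:**
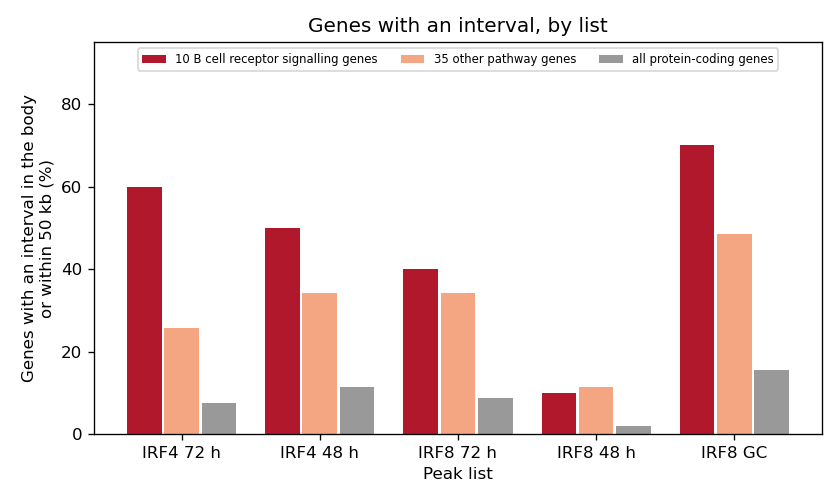
Share of genes (%) with an interval in the body or within 50 kb, for the 10 B cell receptor signalling genes (red), 35 other genes of the pathway (orange) and all protein-coding genes (grey), in each of the 5 lists. In the GC list 7 of 10 signalling genes had one, against 15.6% of all genes.

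The 28 intervals fell on 17 separate places, and the sequences of those that several lists share or that hold a composite element are shown here because they differ in kind. At 5 places an EICE lay within 100 bp of an interval centre, at 1 place, near Grap, a pair of AP-1 sites, and none held both. The stretches are on the plus strand of mm9, 5′ to 3′, with the element in capitals and 25 bases on either side. Each label names every list with an interval at the place. At Dapp1 the EICE lies within 100 bp of the IRF8 72 h centre but 421 bp from the GC centre. In the Lyn intron an EICE and an ISRE core overlap within the capitals, and downstream of Lyn the EICE is on the minus strand, so the capitals show its reverse complement.
Plcg2, chr8:119999883-119999942, 22.3 kb upstream, IRF8 72 h and GC: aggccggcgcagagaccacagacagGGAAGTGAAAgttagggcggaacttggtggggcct
Dapp1, chr3:137644493-137644552, promoter, IRF8 72 h and GC: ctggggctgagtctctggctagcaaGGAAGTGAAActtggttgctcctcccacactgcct
Lyn, chr4:3652004-3652069, intron, IRF8 72 h: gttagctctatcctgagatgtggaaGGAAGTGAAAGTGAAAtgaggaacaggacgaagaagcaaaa
Bank1, chr3:135910489-135910548, intron, GC: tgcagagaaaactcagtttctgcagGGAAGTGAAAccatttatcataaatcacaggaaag
Lyn, chr4:3752068-3752127, downstream, IRF4 72 h and 48 h: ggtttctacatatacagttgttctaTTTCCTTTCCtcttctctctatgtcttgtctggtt
Grap, chr11:61458185-61458264, 8.54 kb upstream, IRF4 72 h and 48 h, IRF8 72 h and GC: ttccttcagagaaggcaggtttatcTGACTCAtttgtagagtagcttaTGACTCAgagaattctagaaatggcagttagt

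Upstream of Syk and Blnk, IRF4 at both times and IRF8 in GC cells shared a place with none of the 6 elements within 100 bp of the centre, and the 201 bases around the IRF4 48 h centres are given in lower case to show this.
Syk, chr13:52667959-52668159: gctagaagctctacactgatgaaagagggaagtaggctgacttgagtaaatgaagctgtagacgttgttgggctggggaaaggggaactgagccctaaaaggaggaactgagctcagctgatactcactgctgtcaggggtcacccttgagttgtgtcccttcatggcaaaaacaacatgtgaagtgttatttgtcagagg
Blnk, chr19:41070196-41070396: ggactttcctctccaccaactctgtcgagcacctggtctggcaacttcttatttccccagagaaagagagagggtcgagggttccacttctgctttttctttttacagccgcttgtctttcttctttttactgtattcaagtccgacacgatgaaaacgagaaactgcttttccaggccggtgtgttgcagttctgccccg

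**Figure D2:**
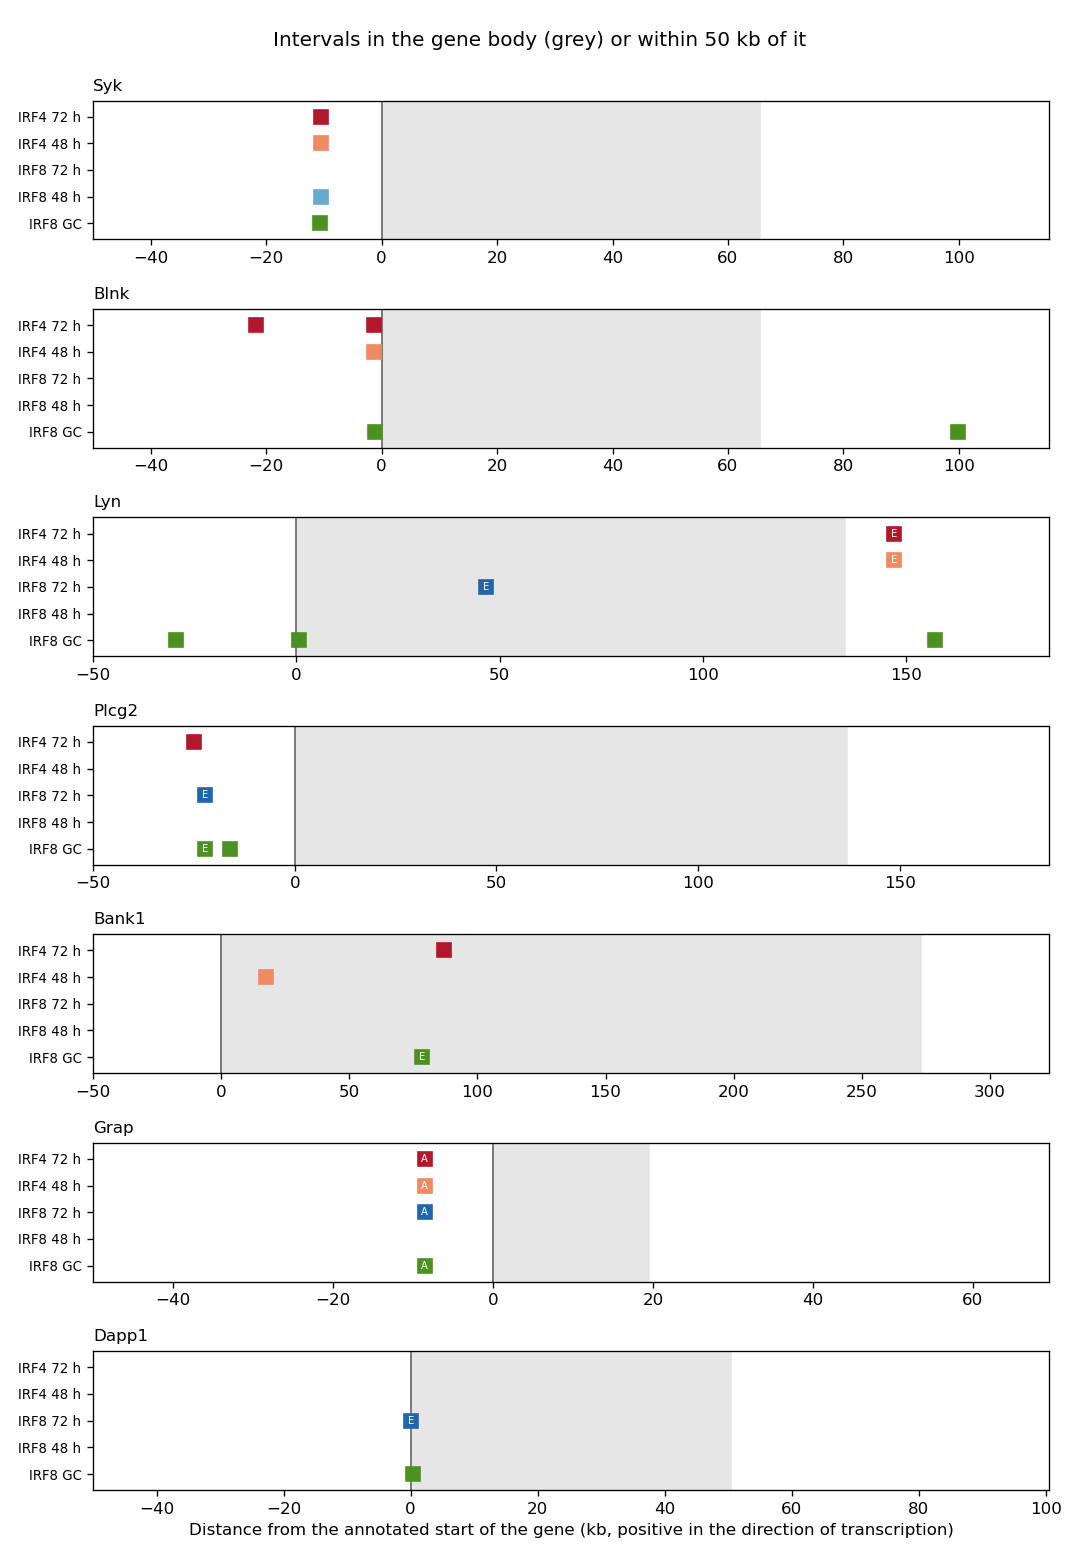
Position of each interval centre relative to the annotated start of its gene (kb, positive in the direction of transcription), for the 7 genes with an interval, with the gene body in grey and 1 row per list. E marks an EICE and A an AP-1 site within 100 bp of the centre; at Grap and Syk the intervals of 4 lists fall on 1 place, whereas those at Bank1 fall on 3.

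The signal of an LPS peak is the authors' normalised tag count, scaled to 10000000 tags per library. The LPS libraries held 3766015 tags (IRF4 72 h), 3396941 (IRF4 48 h), 3065426 (IRF8 72 h) and 4375858 (IRF8 48 h), of which 0.18% to 0.82% fell in peaks. For the GC list the depth is unknown. The caller's tag thresholds, 9 to 11 tags, correspond to 25.1 to 29.4 normalised tags, and the lowest listed peaks carried 18.6 to 23.6. Weaker binding at a gene without a peak was not detectable at this depth. The ranges in parentheses are exact 95% Poisson intervals and cover counting error only. In bulk chromatin, binding in fewer cells and weaker binding per cell cannot be told apart. The 7 IRF4 72 h peaks of the signalling genes had a median of 37.2 tags, against 29.2 for the whole list, and the 5 IRF4 48 h peaks 53 against 38.3. The 4 IRF8 72 h peaks had a median of 44 against 32.6, and the 1 IRF8 48 h peak had 25.1 against 27.4. Above the median of their list lay 4 of the 7 IRF4 72 h peaks and 4 of the 5 IRF4 48 h peaks. For IRF8 it was 2 of 4 at 72 h and 0 of 1 at 48 h. By definition, a median leaves at most as many peaks of a whole list above it as at or below it.

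The receptor chain and the Src-family kinases came first in the order of signalling. Cd79a, which encodes the CD79A chain (chromosome 7, 25682400 to 25687216), and Blk, which encodes a Src-family kinase (chromosome 14, 63991674 to 64036024), had no interval. Lyn, which encodes the Src-family kinase LYN (chromosome 4, 3605262 to 3740269), had 6 intervals on 5 places, and no place was shared between the factors or between LPS and GC cells. An intronic IRF8 72 h peak 46.7 kb past the Lyn start (3651740 to 3652240) carried 78.3 normalised tags (50.2 to 116), rank 43 of 1059 peaks. Its words of 24 bases within 100 bp of the centre occurred a median of 2 times in the genome, against 1 for each other interval of the 28. Shorter repeats can leave this median at 1. Runs of GT lie within 100 bp of the centres of the IRF4 72 h peaks 25.1 kb upstream of Plcg2 and 21.8 kb upstream of Blnk. IRF4 instead had a peak 11.9 kb past the end of Lyn, where the 72 h library gave 47.8 tags (28.3 to 75.5), rank 113 of 898, and the 48 h library 41.2 (22.5 to 69.1), rank 585 of 1573. Its nearest coding start was that of Rps20, which encodes a ribosomal protein. The GC intervals lay 29.7 kb upstream of Lyn, over the Lyn promoter (3605174 to 3606722) and, 157 kb past the Lyn start, over the Rps20 promoter.

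Syk encodes the kinase that docks on the phosphorylated receptor (chromosome 13, 52678542 to 52744161). Its single place, 10.5 kb upstream in intergenic sequence, was in 4 of the 5 lists. For IRF4 the 72 h library gave 55.8 tags (34.5 to 85.2) and the 48 h library 76.5 (50 to 112), ranks 78 of 898 and 108 of 1573. IRF8 gave 25.1 tags at 48 h (12.5 to 45), rank 174 of 234, and had no listed peak at 72 h. The LPS centres lay within 51 bp of each other, and the GC interval (52666653 to 52669266) was 2614 bp wide, the widest of the 11 GC intervals at these genes.

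Blnk encodes the adaptor on which SYK, BTK and PLCG2 assemble (chromosome 19, 41003417 to 41069025, minus strand). IRF4 had a peak 1.28 kb upstream of its start, where the 72 h library gave 37.2 tags (20.3 to 62.4), rank 282, and the 48 h library 53 (31.4 to 83.7), rank 354. A GC interval of 1690 bp covered that place. A weaker IRF4 72 h peak 21.8 kb upstream carried 23.9 tags (10.9 to 45.4), rank 882 of 898, and lay nearer to Dntt, which encodes terminal deoxynucleotidyl transferase. A GC interval 34.2 kb past the end of Blnk lay nearest to Zfp518a, a zinc finger gene. IRF8 had no listed peak here in LPS cultures.

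Grap encodes a GRB2-related adaptor of lymphocyte receptor signalling (chromosome 11, 61466767 to 61486286). Its place 8.54 kb upstream carried 85 IRF4 tags (58.1 to 120) at 72 h, 247.3 IRF4 tags (197 to 306) at 48 h and 32.6 IRF8 tags (15.6 to 60) at 72 h. The 48 h IRF4 peak ranked 16 of 1573, the 72 h IRF4 peak 36 of 898 and the 72 h IRF8 peak 515 of 1059. The peak thus stood high in both IRF4 lists and near the middle of the IRF8 72 h list, and it was absent from the IRF8 48 h list. The LPS centres lay within 12 bp of each other. The AP-1 sites start at 61458210 and 61458233. The middle of the first lay at -13 bp from the IRF4 72 h centre, -14 bp from that of IRF4 48 h and -2 bp from that of IRF8 72 h. The middle of the second lay 10 bp past the IRF4 72 h centre, 9 bp past that of IRF4 48 h and 21 bp past that of IRF8 72 h. The GC interval (61457624 to 61458807) covered both sites.

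Bank1 and Dapp1 encode 2 further adaptors, a scaffold with ankyrin repeats that LYN phosphorylates and a protein that binds phosphoinositides at the membrane. The 3 intervals at Bank1 (chromosome 3, 135716327 to 135989030, minus strand) were all intronic and none overlapped another. The IRF4 72 h peak, 87 kb past the start, carried 29.2 tags (14.6 to 52.3), and the IRF4 48 h peak, 17.5 kb past it, carried 29.4 (14.1 to 54.1). Both counts are close to the caller's threshold. The GC interval, 78.5 kb past the start, was the Bank1 interval with an EICE. At Dapp1 (chromosome 3, 137593971 to 137644509, minus strand) the IRF8 72 h peak sat on the promoter, its centre 5 bp from the start, with 32.6 tags (15.6 to 60). That count too is close to the caller's threshold. The EICE shown above lies 9 to 18 bp upstream of the annotated Dapp1 start. The GC interval (137643455 to 137644748) covered it, and IRF4 had no listed peak.

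Of the effector genes, Btk, which encodes the kinase that activates PLCG2 (chromosome X, 131076875 to 131118109), had no interval. Plcg2, which encodes the phospholipase that releases the calcium-mobilising second messenger (chromosome 8, 120022191 to 120159040), had 4 intervals, all 16.1 to 25.1 kb upstream. The IRF8 72 h peak 22.3 kb upstream carried 55.5 tags (32.3 to 88.8), rank 100 of 1059, and a GC interval of 1456 bp covered it. The IRF4 72 h peak lay 25.1 kb upstream, outside both, with 29.2 tags (14.6 to 52.3), rank 505 of 898. A further GC interval lay 16.1 kb upstream. Just outside the 50 kb limit, an IRF4 72 h peak 67.5 kb from the gene carried 39.8 tags; the farthest interval just inside it was the GC interval 34.2 kb from Blnk.

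**Figure D3:**
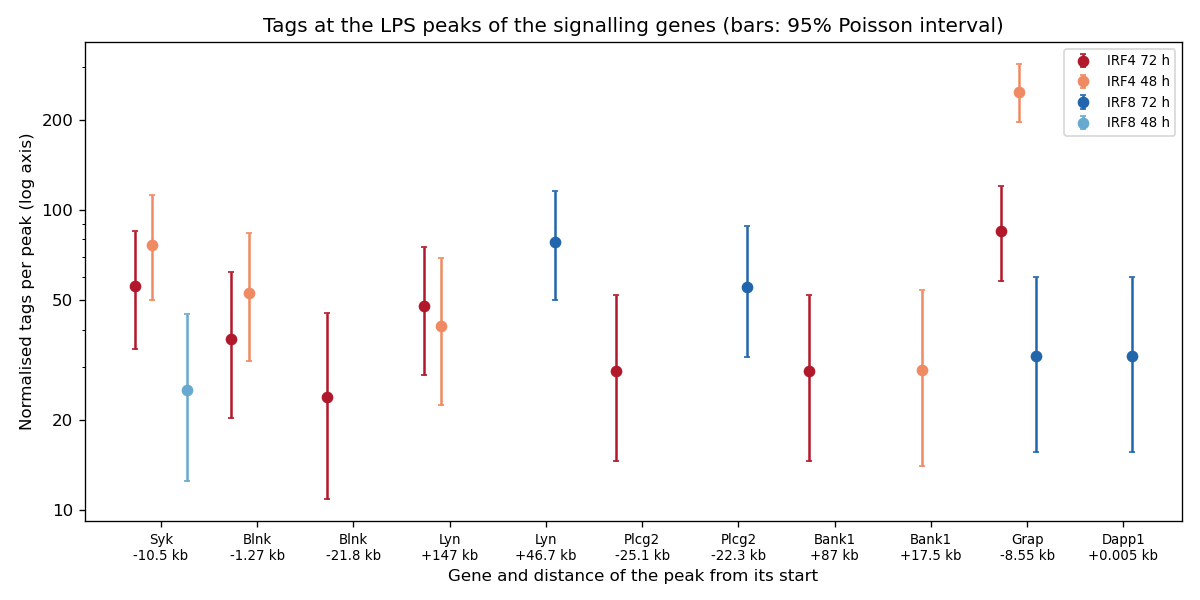
Normalised tags (log axis) at each LPS peak of the signalling genes, by gene and distance from its start, with exact 95% Poisson intervals for 1 library each. The Grap peak of IRF4 at 48 h, 247.3 tags, stands above every other point, and the intervals of most other peaks overlap.

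Between the culture times, IRF4 tags could be compared at the 4 places listed at both. At Grap they were 85 at 72 h against 247.3 at 48 h, a ratio of 0.344 (95% interval 0.221 to 0.522, 32 against 84 tags). This passed (exact binomial test, two-sided, adjusted p = 1.72e-05 over 536 shared places). It passed also when set against the median ratio of the single-copy places, 0.752 (exact binomial test, adjusted p = 0.00863). The Grap ratio ranked 9 from the lowest of the 536. Syk (0.729, 0.39 to 1.35), Blnk (0.702, 0.323 to 1.49) and Lyn (1.16, 0.545 to 2.52) did not pass (exact binomial test, adjusted p = 0.759, 0.829 and 0.939), and their intervals span both directions. Of all shared places, 2.61% were called lower at 72 h, with 1 of the 4 signalling places among them, and 0% higher. The test compares 2 libraries, not the culture times. For IRF8, no place of the 10 genes was listed at both times: the 72 h list held Lyn, Plcg2, Grap and Dapp1, and the 48 h list Syk alone. The IRF8 48 h list is the shortest, with 234 peaks against 1059 at 72 h, and over all peaks these lists shared 138 places.

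**Figure D4:**
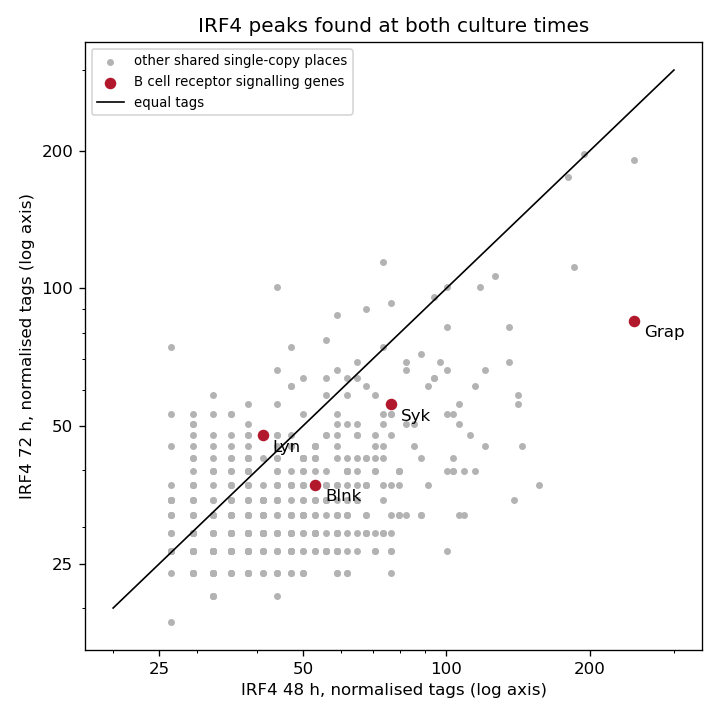
Normalised IRF4 tags at 72 h (y) against 48 h (x), both on log axes, at the 489 single-copy places listed at both times (grey), with the 4 signalling genes in red and the line of equal tags. Grap lies far below the line, at 85 against 247.3, and Syk, Blnk and Lyn lie within the cloud.

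Between the factors, a single place could be compared at each time. At 72 h Grap had 85 IRF4 tags and 32.6 IRF8 tags, a ratio of 2.6 (1.25 to 5.94, 32 against 10 tags). This was the highest ratio of the 258 places that the factors shared at 72 h, but it did not pass (exact binomial test, two-sided, p = 0.00759, adjusted p = 0.317), and 0% of those places were called higher for IRF4. At 48 h Syk had 76.5 IRF4 tags and 25.1 IRF8 tags, a ratio of 3.04 (1.45 to 6.83, 26 against 11 tags), which passed (exact binomial test, adjusted p = 0.0105 over 122 places). At this time 17.2% of the shared places were called higher for IRF4, and the median ratio over the 89 single-copy ones of the 122 places was 1.52. Set against that median, the Syk call ended (exact binomial test, adjusted p = 0.346). Of the 17 places, 11 were in an LPS list: IRF4 had 8 and IRF8 had 5, with 2 in common, at Syk and Grap. Over whole lists, the factors shared 258 places at 72 h, out of 898 IRF4 and 1059 IRF8 peaks. At 48 h they shared 122, out of 1573 IRF4 and 234 IRF8 peaks. Whether the signalling genes differ from this was not tested.

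GC cells and LPS cultures shared 5 of the 17 places, those at Syk, Blnk (1.2 kb upstream), Plcg2 (22.3 kb upstream), Grap and Dapp1. A further 6 places were in the GC list alone and 6 in LPS lists alone. For IRF4, 3 of 7 peaks at 72 h lay under a GC interval, against 19.2% of the whole list, and 3 of 5 at 48 h, against 12.2%. For IRF8, 3 of 4 did so at 72 h, against 19.1%, and 1 of 1 at 48 h, against 19.7%. So few peaks were given no test. The GC cells were frozen and handled by a company, and their intervals, with a median width of 1144.5 bp, came from a different caller than the LPS peaks of 500 bp. Cell type, handling and caller therefore cannot be told apart.

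Elements were counted within 100 bp of the centres. Of the 4 IRF8 72 h peaks, 3 held an EICE (Lyn, Plcg2, Dapp1), against 22.1% of all peaks of that list, and the fourth, at Grap, held AP-1 sites, against 8.02%. Of the 7 IRF4 72 h peaks, 1 held an EICE (25.6% of all) and 1 an AP-1 site (18.5%). Of the 5 IRF4 48 h peaks, again 1 held an EICE (14.6%) and 1 an AP-1 site (28.7%). These were the same places downstream of Lyn and upstream of Grap at both times. Of the 11 GC intervals, 2 held an EICE within 100 bp of the centre (7.34% of all), at Plcg2 and Bank1. An AP-1 site lay at 1 (5.81%) and an ISRE core at 0 (13.5%). Over whole GC intervals, 4 of 11 held an EICE (23% of all) and 4 an ISRE core (37.4%). In 10 of the 17 places none of the 6 elements lay within 100 bp, 6 of them bound by IRF4. The share of all intervals with none of the 6 elements is not given here. No AICE was found at any of the 17 places. Over all intervals, each AICE form lay within 100 bp of 0.219% to 3.64% of the centres, by list. These counts are small and no difference between the lists was tested.

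The rest of the pathway was read from a list of 35 genes for receptor chains, adaptors, lipid and calcium signalling, and inhibitors. Of these, 9 had an interval in the IRF4 72 h list, 12 in the IRF4 48 h list, 12 in the IRF8 72 h list, 4 in the IRF8 48 h list and 17 in the GC list, and 14 had none. The background shares are those given above for all genes. Grb2, Pik3ap1 and Pag1 had an interval in all 5 lists, and 10 genes in at least 3. The share of all protein-coding genes with an interval in that many lists is not given here. Nor are the lengths of the 35 genes, so these counts are a description only. Pag1 encodes a membrane adaptor that recruits CSK, the kinase that restrains Src-family kinases. Its intronic place 7.41 kb past the start carried 31.9 IRF4 tags at 72 h and 32.4 at 48 h, with 52.2 IRF8 tags at 72 h and 34.3 at 48 h, and an EICE lay at all of these centres except that of IRF8 48 h. The GC interval at Pag1 lay elsewhere, 79.4 kb past the start. Inpp5d encodes the lipid phosphatase SHIP1, an inhibitor of the pathway, and had an intronic EICE place 30.6 kb past its start. It carried 45.1 IRF4 tags at 72 h and 70.7 at 48 h, with 52.2 IRF8 tags at 72 h, and lay under a GC interval too.

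Pik3ap1 encodes BCAP, an adaptor for phosphoinositide 3-kinase, and its intron held 2 separate places. IRF4 at 72 h (58.4 tags) and 48 h (55.9) and IRF8 at 48 h (29.7) lay 12.5 kb past the start, and IRF8 at 72 h (29.4) and the GC interval lay over 39 kb past it. Grb2, which encodes the adaptor that GRAP resembles, had an IRF4 peak with an EICE in its intron, with 26.6 tags at 72 h and 41.2 at 48 h. Itpr1, which encodes a calcium release channel, had 2 intronic places that 3 LPS lists shared. The place 128 kb past its start carried 23.9 IRF4 tags at 72 h and 76.5 at 48 h, with 29.4 IRF8 tags at 72 h. The place 66 kb past its start carried 42.5 IRF4 tags at 72 h and 67.7 at 48 h, with 32.6 IRF8 tags at 72 h. Neither difference is given a test here. Lat2 encodes a membrane adaptor, and a GC interval near its start covered an IRF4 72 h peak of 34.5 tags, 0.995 kb past the start, and an IRF8 72 h peak of 35.9 tags at the same place. Rasgrp3, which encodes an activator of Ras, carried 47.8 IRF4 tags at 72 h, 64.8 at 48 h and 26.1 IRF8 tags at 72 h at 1 intronic place. Vav2 and Cblb, which encode an exchange factor and a ubiquitin ligase of receptor signalling, had LPS peaks of at most 31.9 tags, and no LPS lists shared a place there.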

How the data were processed

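Peak lists from 5 ChIP-seq libraries, 1 per group, were used as deposited. Per the file headers, the authors called the 4 LPS lists with HOMER findPeaks (500 bp peaks, false discovery rate 0.001, at least 4-fold over 10000 bp around the peak). The signal in these deposited lists is the normalised tag count, for a library of 10000000 tags, and the score is the authors' tag number after limiting tags per position. No input library was named. The GC list was called with MACS, per the series' design text, and holds only positions. The submitters' processing notes name BWA, Bowtie2 and mm9; which tool aligned which library is not given in the sources used here. Dividing out the scaling gave whole tags within 0.05 for 100% of peaks. These entered exact binomial tests, two-sided, at every place where 2 lists overlap by at least 1 bp, with Benjamini-Hochberg adjustment over all places of the pair (SciPy 1.17.1). The test was checked on counts with known ratios. Both strands of the mm9 genome were read within 100 bp of each centre for 6 elements: EICE (GGAANNGAAA), ISRE core (GAAANNGAAA), AP-1 (TGACTCA), a PU.1-type site (GAGGAAGT), and 2 AICE forms, GAAA joined to an AP-1 site, or TTTC 4 bases before one. An AICE is also an AP-1 match. Promoter means within 1000 bp of a coding transcript start. The 10 genes and the 35 pathway genes were chosen with earlier results of these data known. All intervals of the 10 genes were named, and of the 35 those in at least 3 lists were described, except for items not reported here.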

Additional observations from a re-analysis of the deposited data

How the results depend on the processing

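With 1 library per group, no replicate could be left out. No paired analysis was possible because each group held 1 library. The GC list has no score, so a stricter threshold could not be tried there. Counting the gene body alone left 1 of the 10 genes in the IRF4 72 h list, 1 in the IRF4 48 h list, 2 in the IRF8 72 h list, 0 in the IRF8 48 h list and 3 in the GC list. Keeping the peaks above each LPS list's median tags left 2 genes for IRF8 72 h and 0 for IRF8 48 h. Under windows of 20 kb or 100 kb and with single-copy intervals alone (3 genes for IRF8 72 h, without Lyn) every count stayed within 1.5 times. Set against the median ratio, 0 signalling places were called between IRF4 and IRF8 at 48 h (Syk: exact binomial test, adjusted p = 0.346). By the findPeaks score, with an overlap of 250 bp and over single-copy places alone, the Syk call remained (exact binomial test, adjusted p = 0.00462 to 0.0169), and the Grap call between times remained under all 4 alternatives (adjusted p = 1.13e-05 to 0.00863, exact binomial test). Over whole intervals 6 of the 28 held an ISRE core, 9 an AP-1 site and 3 a PU.1-type site, against 1, 4 and 1 within 100 bp, and within 50 bp 0 held an ISRE core. Over all whole intervals the shares by list were 10.4% to 37.4%, 11.9% to 35.4% and 4.91% to 16.2% for these 3 elements. With 1 mismatch allowed, chosen after seeing the data, 11 held an EICE, 19 an ISRE core and 4, all at Grap, the joined AICE. Of all intervals, 41% to 61.2% by list then held an EICE and 43.8% to 62.8% an ISRE core. Peaks of 9 to 11 tags are at the limit of detection. For IRF8 these are the 72 h peaks at Dapp1 and Grap and the 48 h peak at Syk. For IRF4 they are both Bank1 peaks, the Plcg2 peak and the 72 h peak 21.8 kb upstream of Blnk.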

Other observations

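The EICE matches shared more than the searched letters. At 4 of the 5 EICE places, in the Lyn intron, upstream of Plcg2, at the Dapp1 promoter and in the Bank1 intron, the element read GGAAGTGAAA, all 4 of them IRF8 places. The EICE of the IRF4 place downstream of Lyn read otherwise. So did an EICE in an IRF8 interval, the GC interval 29.7 kb upstream of Lyn, at -451 bp from its centre and so not among the 5 places. Over all EICE matches of a list, these letters made up 27.7% for IRF4 72 h, 23.4% for IRF4 48 h, 38.6% for IRF8 72 h, 46.7% for IRF8 48 h and 20.2% for GC. This was noticed after the values were seen and was not tested. Among the RefSeq promoters of 300 bases (GRCm38.p6), in which 7 of the 10 genes had an entry, those of Dapp1 and Bank1 held the same letters, against 0.225% of 32841 promoters. The Dapp1 promoter was among the 4 places where these letters were first noticed, so its match is not independent of them. No interval of the 5 lists covered the Bank1 promoter.

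With 1 mismatch allowed, the Grap place was the only one of the 17 to match the joined AICE. Of all windows, 8.24% of the IRF4 72 h list, 13.4% of the IRF4 48 h list, 2.39% of the IRF8 72 h list, 1.77% of the IRF8 48 h list and 1.81% of the GC list did so.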
